A study of Mus musculus with 6 samples.

Results

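The livers of wild type (WT) and hepatocyte NEK7 knockout (Hom) mice were compared for 8 genes of oxidative drug and lipid metabolism. They were chosen by name from the deposited expression table and comprise 3 cytochrome P450 genes of the Cyp3a family (Cyp3a11, Cyp3a13 and Cyp3a25), 4 flavin monooxygenase genes (Fmo1, Fmo2, Fmo4 and Fmo5) and Por, which encodes NADPH-cytochrome P450 oxidoreductase. All 8 symbols were found among the 17975 genes of the table, and all 8 had enough reads to be tested. RNA-seq had been performed on whole liver from 3 WT and 3 Hom mice, 1 library per mouse. The Hom mice carried floxed NEK7 alleles on both chromosomes together with Alb-Cre (NEK7 fl/fl-Alb-Cre+), on a C57BL/6 background. In these mice the albumin promoter drives Cre, which is meant to remove the gene in hepatocytes. The state of the gene in other liver cells was not measured here. The control mice are titled Ctrl in the labels and called WT by the study. The labels give no floxed allele, Cre or treatment for them. For its mice in general the study states an age of 6 to 10 weeks and, for knockout work, animals of either sex. It describes liver dysfunction and fibrosis in Hom mice that were several months old. The age and sex of each sequenced mouse are not given in the sources used here. The comparison asks how transcripts of this oxidation system stood in livers whose hepatocytes lacked NEK7.

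Cytochrome P450 enzymes of the Cyp3a family sit in the endoplasmic reticulum and hydroxylate a wide range of drugs, steroids and bile acids. Each catalytic cycle needs electrons from NADPH, which Por passes to the heme of the P450, and cytochrome b5 can deliver part of them. Flavin monooxygenases (FMOs) oxidize nitrogen and sulfur atoms of drugs and dietary compounds with a bound flavin, take NADPH directly and do not need Por. Transcription of Cyp3a11 in hepatocytes is driven by the nuclear receptors PXR (Nr1i2) and CAR (Nr1i3), which bind DNA with RXR, on a background set by HNF4A. In the mouse some genes of the Cyp3a family are sex-biased: Cyp3a41a and Cyp3a44 are known as female-predominant in adult liver.

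Fmo2 was the member that stood highest in the Hom livers relative to WT, at 6.47 times the WT level, and Cyp3a25 was the only member that fell, by 0.58 on the log2 scale. The other 6 did not pass the test. Levels are given as CPM, estimated read counts scaled to library size with trimmed mean of M-values (TMM) factors. A gene was called changed where its p from the quasi-likelihood test of edgeR, adjusted by the Benjamini-Hochberg method over the 13805 genes tested, was under 0.05. By that rule 1 of the 8 members was lower and 1 was higher in the Hom livers. Of all genes tested 41.7% were called, 20.1% lower and 21.5% higher. The median log2 fold change of the 8 members was 0.14, against -0.0018 over all genes tested, but without Hom replicate 1 the median of the members was 0.00051. The edgeR p-values set each group difference against the spread between mice, estimated with help from all genes tested. With 3 mice per group the smallest exact two-sided permutation p is 0.1.

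**Figure D1:**
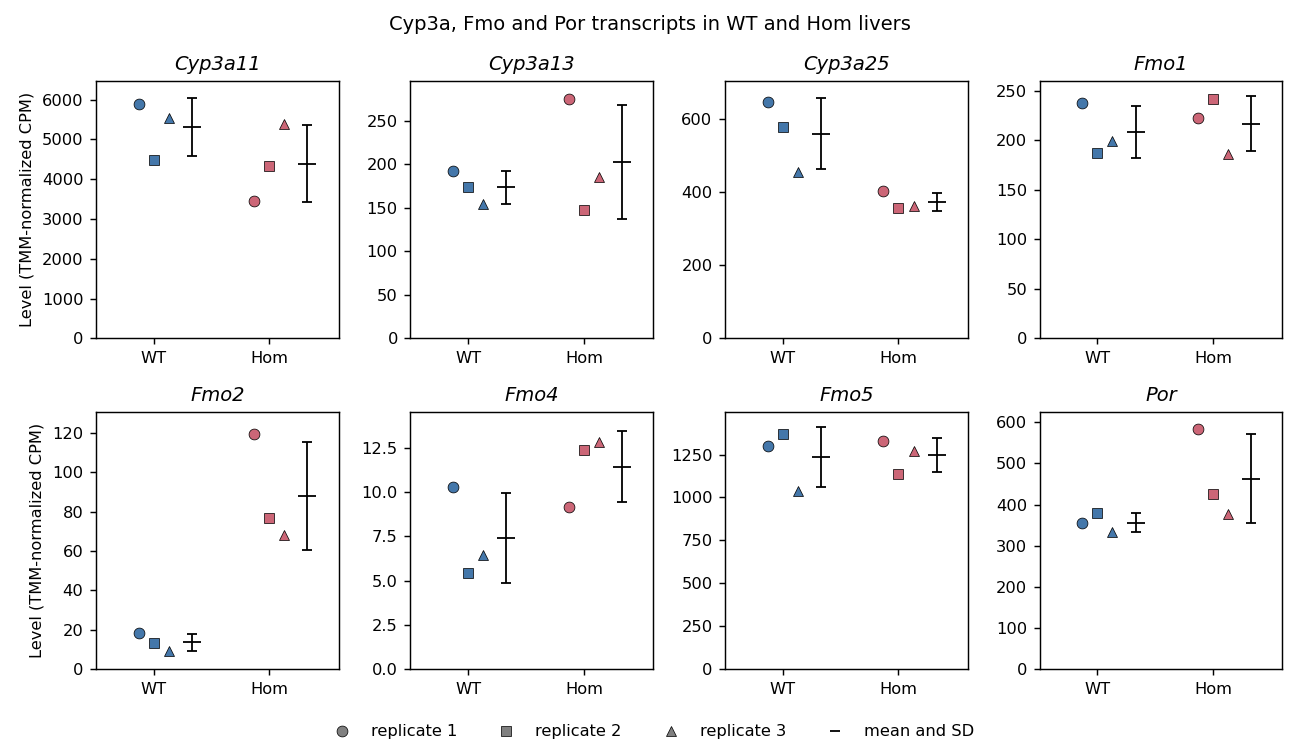
Level of each of the 8 transcripts in every liver, as TMM-normalized CPM on a linear axis starting at 0, for 3 WT (blue) and 3 Hom (red) livers, with replicates 1 to 3 as circles, squares and triangles and bars for mean ± SD. Fmo2 separates the groups widely (at most 18.1 CPM in WT and at least 68.0 in Hom), Cyp3a25 separates them more narrowly (at least 455 in WT and at most 403 in Hom), and the points of the other 6 panels overlap.

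The libraries held between 19349418 and 19730236 estimated counts each. Nek7 itself, the targeted gene, had 62.9, 69.1 and 63.7 CPM in the WT livers and 14.5, 18.1 and 16.7 CPM in the Hom livers, a log2 fold change of -1.99 (SE 0.10, edgeR adjusted p = 0.000159). A single library stood apart by the Y-linked genes: Eif2s3y had 0.187 CPM and Ddx3y 0 CPM in Hom replicate 1, while in the other 5 livers they lay between 37.3 and 49.6 CPM. WT replicate 1 stood apart by Cyp2b9, a female-predominant P450, which had 105 CPM there and 1.09 and 0.492 CPM in the other WT livers. Of 3 tested female-biased liver genes 1 rose and none fell in the Hom group, with log2 fold changes from -4.58 to 2.75. Of 8 male-biased liver genes 6 fell in the Hom group as a whole (median log2 fold change -4.14), and 7 fell with both replicates numbered 1 left out. Their part in the results was not tested. The TMM factors were 0.81 to 0.92 in WT and 1.09 to 1.23 in Hom, so the scaling moved every value. Scaling by library size alone put the median of all log2 fold changes at 0.45, with 642 genes lower and 6574 higher (4.65% and 47.6%), against 2780 and 2974 with TMM.

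As TPM, a measure that divides by transcript length and so allows genes to be compared, the 8 members spanned 2.64 to 6096 over the 6 livers. Cyp3a11 was the most abundant in every liver, at 4804, 3001 and 3743 TPM in WT and 3509, 5070 and 6096 TPM in Hom. It ranked between 18 and 45 among the 17975 genes in the 6 livers. In WT it was followed by Fmo5 (582 ± 97.5 TPM, mean ± SD, n = 3) and Cyp3a25 (418 ± 114 TPM), whose ranges overlapped. Por came next at 207 ± 26.4 TPM, then Fmo1 at 140.2 ± 34.5 TPM and Cyp3a13 at 79.8 ± 18.2 TPM. Each of these lay above the next with no overlap between livers except where stated. Fmo2 (4.90 ± 2.16 TPM) and Fmo4 (3.93 ± 1.91 TPM) were the lowest, and their WT ranges overlapped.

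The order of the means was the same in the Hom livers, but the gaps between neighbours differed at 3 places. Fmo5, at 918, 896 and 981 TPM, lay clear of Cyp3a25. Cyp3a25, at 421, 428 and 421 TPM, overlapped with Por at 482, 404 and 347 TPM. Fmo2 lay clear of Fmo4, with 59.7, 44.1 and 37.7 TPM against 6.67, 10.3 and 10.5 TPM. On the TPM scale, which has no correction for library composition, 6 members (all but Cyp3a11 and Cyp3a25) were higher in every Hom liver than in any WT liver, as were 65.2% of all genes tested. On the CPM scale Fmo2 was the only one of these 6 whose groups did not overlap.

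Fmo2 is the flavin monooxygenase best known from lung, where it is the main FMO of many mammals. It had 18.1, 13.5 and 9.03 CPM in the WT livers, from 325, 211 and 147 estimated counts. In the Hom livers it had 119, 76.9 and 68.0 CPM, from 2554, 1866 and 1577 estimated counts. The lowest Hom liver was well above the highest WT liver, and 28.7% of all genes tested were separated in this direction. Fmo2 thus had a log2 fold change of 2.69 (SE 0.31, 95% interval 1.97 to 3.42), a fold of 6.47 with an interval of 3.91 to 10.7, and the edgeR adjusted p was 0.00116. Leaving out each liver in turn gave log2 fold changes from 2.41 to 2.96, and library size alone gave 3.12, all past the threshold. Fmo2 ranked 7105, 7848 and 8959 by TPM in the WT livers and 1900, 2770 and 3018 in the Hom livers. Relative to Fmo5 in the same liver, a comparison that needs no scaling between libraries, Fmo2 was 1.1%, 0.721% and 0.639% of the Fmo5 TPM in WT and 6.50%, 4.92% and 3.85% in Hom. The log2 ratio differed by 2.64, with an exact permutation p of 0.1, the smallest that 3 against 3 can give.

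Transcripts of non-hepatocyte cells moved in the same livers as Fmo2. Of 10 cholangiocyte markers 9 rose and none fell, and their summed level was 71.8 to 105 CPM in WT and 682 to 918 CPM in Hom. Of 10 stellate cell and fibroblast markers 6 rose and 1 fell, with sums of 340.4 to 400.5 CPM and 725 to 801 CPM. Of 9 endothelial markers 5 fell and 1 rose (188 to 260 CPM against 126 to 131 CPM), and of 10 macrophage markers 2 fell and 3 rose (239 to 594 CPM against 329 to 455 CPM). Among 4 tested lymphocyte markers 1 rose. No marker of these 5 lists was at 0 in all livers. Of 12 hepatocyte markers 6 fell and none rose, with sums of 177458 to 212780 CPM in WT and 100034 to 139528 CPM in Hom, so the liver label was borne out in both groups. Whether the Fmo2 reads came from hepatocytes or from other cells was not tested, and in bulk tissue fewer cells of a type and less RNA per cell cannot be told apart.

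Fmo5, an FMO of liver that also acts as a Baeyer-Villiger monooxygenase, was the most abundant FMO. It had 1299, 1372 and 1039.9 CPM in WT and 1329, 1139 and 1271 CPM in Hom, and the 2 groups covered nearly the same range. Its log2 fold change was 0.011 (SE 0.16, 95% interval -0.36 to 0.38, edgeR adjusted p = 0.962). On the linear scale this interval runs from 0.78 to 1.30 times the WT level. With library size alone the value was 0.46 (edgeR adjusted p = 0.0439), close to the shift of all genes under that scaling.

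Fmo1, a broad-specificity FMO of mouse liver and kidney, had 238, 188 and 199.6 CPM in WT and 223, 242 and 187 CPM in Hom. The groups overlapped over almost their whole range. Its log2 fold change was 0.059 (SE 0.14, 95% interval -0.27 to 0.39, edgeR adjusted p = 0.753), and with library size alone 0.51. As a ratio to Fmo5 within each liver Fmo1 differed by -0.025 on the log2 scale (exact permutation p = 1).

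Fmo4 was the scarcest member, with 85 to 184 estimated counts in WT and 196 to 300.0 in Hom. It had 10.3, 5.45 and 6.45 CPM in WT and 9.15, 12.4 and 12.8 CPM in Hom, so WT replicate 1 lay above Hom replicate 1. The log2 fold change was 0.63 (SE 0.26, 95% interval 0.014 to 1.24). Its unadjusted p in edgeR was 0.0461 and its adjusted p 0.0914, which does not pass. Without WT replicate 1 the log2 fold change was 0.94 (edgeR adjusted p = 0.0136), and with both replicates numbered 1 left out it was 1.09 (edgeR adjusted p = 0.00398). Without Hom replicate 1 alone it did not pass (0.76, edgeR adjusted p = 0.0694). With library size alone and all livers kept it passed (1.07, edgeR adjusted p = 0.0252). Whether Fmo4 passed thus depended on the livers kept and on the scaling.

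Within the FMO pool the share of Fmo2 separated the groups, and those of Fmo5 and Fmo1 overlapped. The 4 Fmo members summed to 849, 742 and 600.5 TPM in WT and 1192, 1209 and 1223 TPM in Hom. Fmo5 made up 79.7% ± 3.14 (SD, n = 3) of this sum in WT and 77.1% ± 3.06 in Hom, and Fmo1 made up 19.2% ± 2.91 and 18.2% ± 2.87. Fmo2 made up 0.853%, 0.600% and 0.501% in WT and 5.01%, 3.65% and 3.09% in Hom, with no overlap (exact permutation p = 0.1). These shares rest on estimated counts, and no counting interval is given for them.

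**Figure D2:**
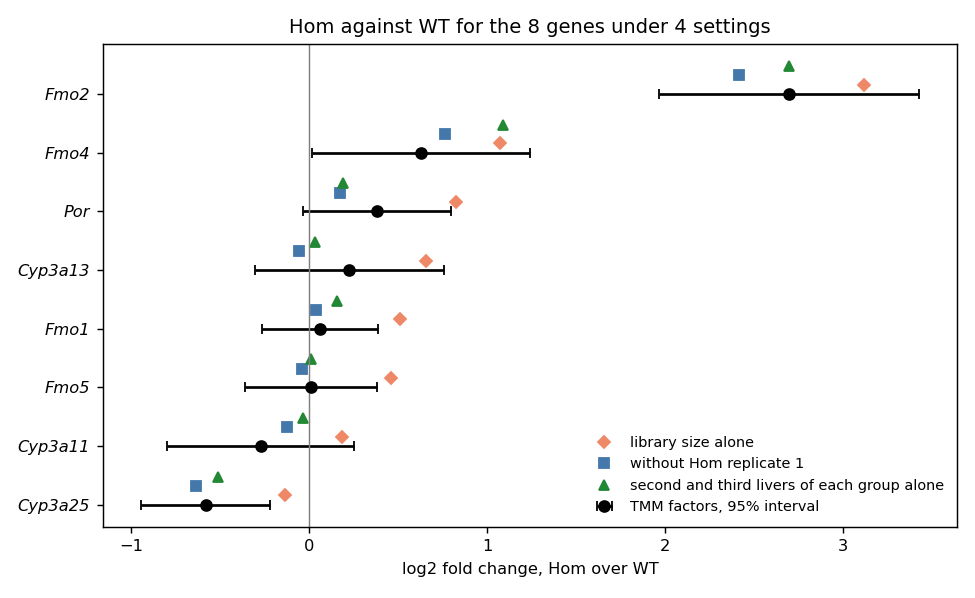
Log2 fold change of each member, Hom over WT, with its 95% interval, under TMM scaling and under library size alone. Fmo2 lies far above 0 under both scalings (2.69 and 3.12), Cyp3a25 lies below 0 with an interval that excludes it under TMM only (-0.58 and -0.14), and Cyp3a11 changes sign between them (-0.27 and 0.18).

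Among the Cyp3a genes, Cyp3a25 fell. It encodes a P450 of mouse liver and intestine and lies next to Cyp3a11 on chromosome 5. It had 647, 579 and 455 CPM in the WT livers and 403, 357 and 363 CPM in the Hom livers, and every Hom liver was below every WT liver. Groups with no overlap in this direction were found for 27.0% of all genes tested, and for 55.6% in either direction. The mean was 560.4 ± 97.2 CPM in WT and 374 ± 25.0 CPM in Hom (SD, n = 3), or 1.5-fold lower. This was a log2 fold change of -0.58 (SE 0.15, 95% interval -0.94 to -0.22, edgeR adjusted p = 0.0218).

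The Cyp3a25 call depended on single livers and on the scaling. Leaving out WT replicate 2, Hom replicate 2 or Hom replicate 3 gave edgeR adjusted p-values of 0.0691, 0.0739 and 0.0763, while the log2 fold change stayed between -0.72 and -0.47. With library size alone it was -0.14 (edgeR adjusted p = 0.519), and on the uncorrected TPM scale the means were 418 ± 114 in WT and 423 ± 4.18 in Hom. As a ratio to Cyp3a11 within each liver it differed by -0.28 on the log2 scale (exact permutation p = 0.5). Part of the reads of Cyp3a25 could be shared with a close relative: 25.7% of its stretches of 50 bases occur in another Cyp3a transcript, and 24.0% in Cyp3a59. Cyp3a59 itself had 66.1, 50.1 and 35.5 CPM in WT and 66.2, 42.1 and 47.2 CPM in Hom, a log2 fold change of 0.035 (SE 0.25, edgeR adjusted p = 0.921). The split of reads between these 2 genes is therefore uncertain.

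Cyp3a11, the main drug-metabolizing Cyp3a enzyme of mouse liver, had 5898, 4484 and 5537 CPM in WT and 3447, 4332 and 5396 CPM in Hom. Hom replicates 1 and 2 lay below all WT livers, and Hom replicate 3 lay within them. Its log2 fold change was -0.27 (SE 0.22, 95% interval -0.80 to 0.25, edgeR adjusted p = 0.354). On the linear scale the interval runs from 0.575 to 1.19 times the WT level, and with library size alone the sign turned to 0.18. In total 14.7% of the stretches of 50 bases of Cyp3a11 occur in another Cyp3a transcript, most often in Cyp3a41a (6.32%).

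Cyp3a13, a divergent Cyp3a gene that shares no stretch of 50 bases with the others, had 193, 174 and 155 CPM in WT. In Hom it had 276, 148 and 186 CPM, with the highest and the lowest value of all 6 livers both in that group. The log2 fold change was 0.22 (SE 0.23, 95% interval -0.31 to 0.76, edgeR adjusted p = 0.452). With library size alone the value was 0.65 (edgeR adjusted p = 0.0319). Without Hom replicate 1, the liver with Y-linked genes at or near 0, it was -0.059 (edgeR adjusted p = 0.764).

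Of the 6 other Cyp3a genes in the table, Cyp3a59 and Cyp3a41b could be tested and neither passed. Cyp3a41b had 0.517 to 1.12 CPM over the 6 livers (log2 fold change -0.20, edgeR adjusted p = 0.702). Cyp3a16, Cyp3a44 and Cyp3a57 stayed under 1 CPM in every liver. Cyp3a41a was estimated at 0.20, 0 and 0 counts in WT and at 161, 0 and 6.94 counts in Hom, so that its reads came almost wholly from Hom replicate 1. Of the stretches of 50 bases of Cyp3a41a 98.6% occur in another Cyp3a transcript, mainly Cyp3a41b, and the values of these 2 genes are uncertain.

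The 9 Cyp3a genes summed to 5486, 3499 and 4145 TPM in WT and 4179, 5649 and 6696 TPM in Hom. Cyp3a11 made up 87.9% ± 2.29 of this sum in WT and 88.2% ± 3.77 in Hom (SD, n = 3). Cyp3a25 made up 9.61% ± 1.88 and 7.98% ± 1.92. Cyp3a13 made up 1.84% ± 0.27 and 2.81% ± 1.42, and the wider spread in Hom came from replicate 1, at 4.44%. All 3 shares overlapped between the groups.

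Por, the electron donor of all microsomal P450 enzymes, had 356, 378 and 333 CPM in WT and 584, 426 and 378 CPM in Hom. Hom replicate 1 was the highest, and Hom replicate 3 stood at the level of WT replicate 2. The log2 fold change was 0.38 (SE 0.18, 95% interval -0.035 to 0.79, edgeR adjusted p = 0.123), which does not pass. Without Hom replicate 1 it was 0.17 (edgeR adjusted p = 0.257). With library size alone it was 0.82 (edgeR adjusted p = 0.00493), above the shift of all genes of 0.45 under that scaling.

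Relative to Por in the same liver, Cyp3a11 was 20.4, 14.6 and 20.5 times the Por TPM in WT and 7.28, 12.5 and 17.6 times in Hom. Hom replicates 1 and 2 lay below all WT livers. The log2 ratio differed by -0.65 (exact permutation p = 0.2), and by -0.30 without Hom replicate 1. Fmo5 was 2.79, 3.01 and 2.59 times Por in WT and 1.90, 2.22 and 2.83 times in Hom, a difference of -0.29 (exact permutation p = 0.3), and of -0.16 without Hom replicate 1. Neither ratio separated the groups.

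**Figure D3:**
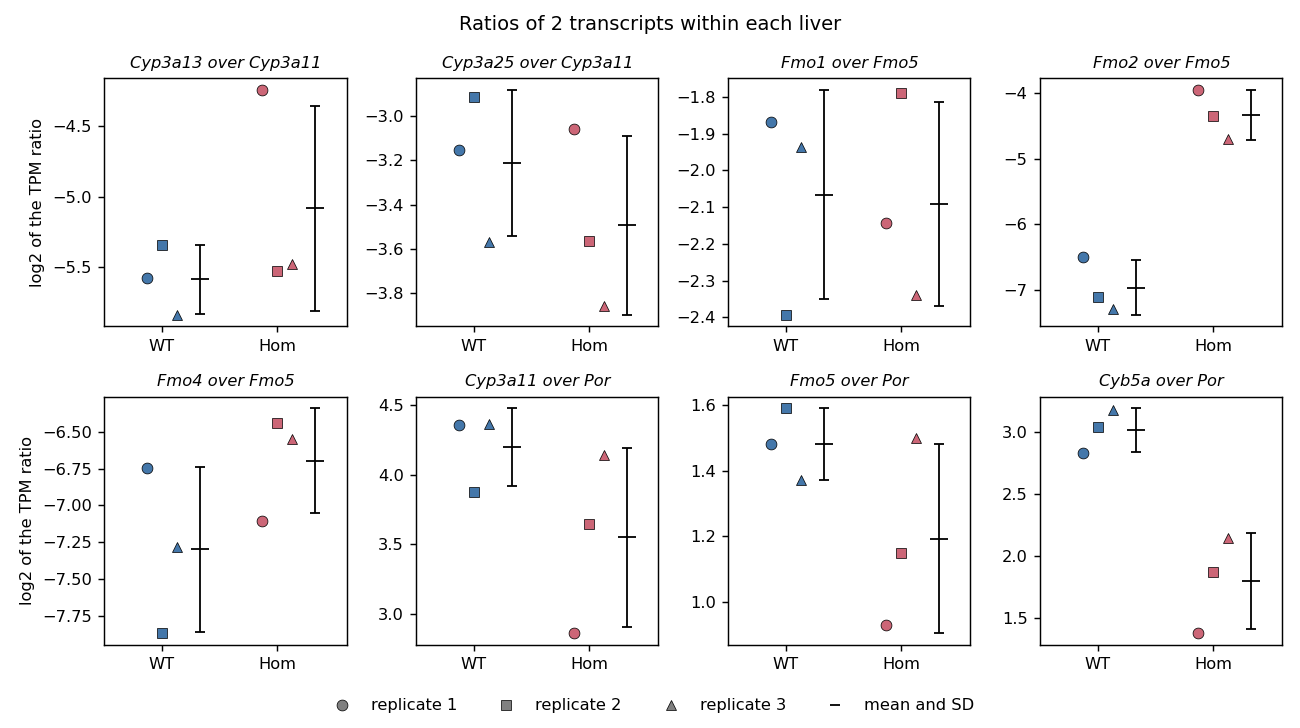
Log2 ratio of pairs of transcripts within each liver, from TPM, for 3 WT (blue) and 3 Hom (red) livers, with replicates 1 to 3 as circles, squares and triangles. Fmo2 over Fmo5 (difference 2.64) and Cyb5a over Por (difference -1.22, a ratio chosen after its values were seen) separate the groups without overlap, and the other ratios overlap.

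Por is joined by other carriers of electrons to or beside the P450 enzymes. Of 9 tested genes in this list 7 fell and none rose, with a median log2 fold change of -0.60. Cyb5a, cytochrome b5 of the endoplasmic reticulum, had 799, 983 and 953 CPM in WT and 480.0, 492 and 529 CPM in Hom (log2 fold change -0.87, SE 0.13, edgeR adjusted p = 0.00296). Cyb5b, the outer mitochondrial membrane form, had the smallest adjusted p of the list (log2 fold change -1.11, edgeR adjusted p = 0.0016). Cyb5r3, the NADH-dependent reductase of cytochrome b5, fell by 0.50 (edgeR adjusted p = 0.0238). The Cyb5r3 call was lost without WT replicate 2 (edgeR adjusted p = 0.0657), WT replicate 3 (0.0763) or Hom replicate 3 (0.0768), and with library size alone its value was -0.031. With library size alone 2 of the 9 were lower and 2 higher. For comparison, the 12 hepatocyte markers had a median of -0.63 under TMM, with 6 lower and none higher.

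Enzymes that supply NADPH to Por and to the FMOs were mixed: of 6 genes 3 fell and 1 rose, with a median of -0.47. With library size alone 0 were lower and 1 higher, with a median of -0.0078. Pgls, which hydrolyses phosphogluconolactone in the pentose phosphate pathway, had the smallest adjusted p (log2 fold change -0.43, edgeR adjusted p = 0.00523), and 0.029 with library size alone. Of 3 sterol synthesis enzymes that take electrons from Por, 1 rose and none fell. This was Sqle, squalene epoxidase, with 61.6, 107 and 92.8 CPM in WT and 193, 171 and 139 CPM in Hom (log2 fold change 0.95, edgeR adjusted p = 0.0135).

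Regulators of Cyp3a transcription fell in part. Of 15 genes 8 fell and none rose, with a median log2 fold change of -0.51, against 2 lower and 1 higher with library size alone. PXR (Nr1i2) had 101, 98.6 and 99.0 CPM in WT and 83.1, 61.1 and 65.2 CPM in Hom (log2 fold change -0.51, SE 0.12, edgeR adjusted p = 0.0156). CAR (Nr1i3) had 92.1, 89.1 and 82.0 CPM in WT and 44.8, 43.0 and 41.7 CPM in Hom (log2 fold change -1.02, SE 0.078, edgeR adjusted p = 0.000373). The groups were separate for both receptors, and CAR was the gene of the list with the smallest adjusted p. The PXR call was lost without Hom replicate 3 (edgeR adjusted p = 0.0591) and with library size alone (-0.065).

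Hnf4a fell by 0.69 (784, 967 and 828 CPM in WT, 578, 505 and 516 CPM in Hom, edgeR adjusted p = 0.00745), and did not pass with library size alone (-0.23). Nr0b2, which encodes the repressor SHP, fell by 1.35 (edgeR adjusted p = 0.00101). Rxra fell by 0.41 under TMM (edgeR adjusted p = 0.0182). The Rxra call was lost without WT replicate 2 (edgeR adjusted p = 0.0577), WT replicate 3 (0.0554), Hom replicate 2 (0.0693) or Hom replicate 3 (0.0700), and with library size alone its value was 0.047. Against these, the PXR and CAR target Cyp3a11 had a log2 fold change of -0.27 that did not pass.

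Other known targets of PXR and CAR moved in both directions. Of 15 genes 6 fell and 2 rose, with a median of -0.56. Cyp2c37 had the smallest adjusted p, with 579, 534 and 664 CPM in WT and 42.9, 64.1 and 59.7 CPM in Hom (log2 fold change -3.41, SE 0.19, edgeR adjusted p = 0.000161). Cyp2b10, the classical CAR target, had 16.6, 16 and 11.8 CPM in WT and 11.2, 0.412 and 1.77 CPM in Hom, and its log2 fold change of -1.75 did not pass (edgeR adjusted p = 0.166). Hom replicate 1 lay apart from the other Hom livers for this gene. With both replicates numbered 1 left out the value was -3.67 (edgeR adjusted p = 0.00554).

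P450 enzymes carry heme, and FMOs do not. Of 8 heme synthesis genes 6 fell and none rose, with a median of -0.58, against 1 lower and 1 higher with library size alone. Cpox, coproporphyrinogen oxidase, had 165, 221 and 230.3 CPM in WT and 51.7, 58.5 and 58.3 CPM in Hom (log2 fold change -1.87, edgeR adjusted p = 0.000375). Alas1, the rate-limiting enzyme of hepatic heme synthesis, ranged from 340.1 to 820 CPM in WT and from 273 to 516 CPM in Hom, and its log2 fold change of -0.30 did not pass (edgeR adjusted p = 0.547). Of 4 heme breakdown genes 1 fell, Hmox2 (log2 fold change -0.34, edgeR adjusted p = 0.0409). Hmox2 lost its call without WT replicate 1 (edgeR adjusted p = 0.0941), WT replicate 2 (0.112), Hom replicate 2 (0.125) or Hom replicate 3 (0.119). Upper-quartile factors (edgeR adjusted p = 0.104), a minimum of 10 counts in every liver (0.0653), no filter (0.0530) and the length correction (0.184) also removed it. With library size alone the Hmox2 value was 0.11. Hmox1, the inducible form, had a log2 fold change of -0.12 (edgeR adjusted p = 0.601).

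Among 12 other phase I enzymes 7 fell and 1 rose, with a median log2 fold change of -0.82. Maob, a mitochondrial amine oxidase, had the smallest adjusted p (208, 233 and 213 CPM in WT, 132, 124 and 133 CPM in Hom, log2 fold change -0.75, edgeR adjusted p = 0.00125). The medians of these lists outside the sterol enzymes ran from -0.82 to -0.23 under TMM, and from -0.36 to 0.21 with library size alone. Those of the hepatocyte markers were -0.63 and -0.18. Whether these lists fell apart from the hepatocyte markers was not tested.

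**Figure D4:**
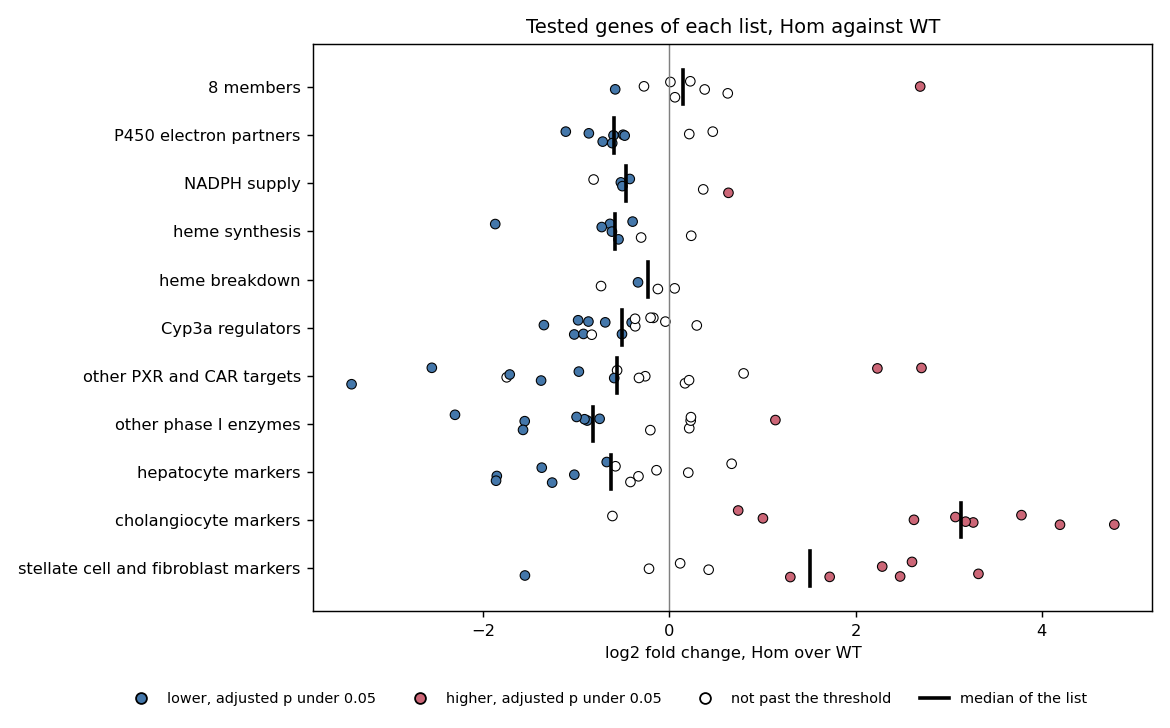
Log2 fold change, Hom over WT under TMM scaling, of every tested gene in each list, coloured where the edgeR adjusted p was under 0.05 (blue lower, red higher, white not past the threshold), with a black line at the median of each list. The members have 1 blue and 1 red point around a median of 0.14. The medians of the electron partners, heme synthesis genes, regulators and hepatocyte markers lie at -0.60, -0.58, -0.51 and -0.63. Those of the cholangiocyte and the stellate cell and fibroblast markers lie at 3.13 and 1.51.

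In the annotation the members lie in 3 places. Fmo4, Fmo1 and Fmo2 follow each other on chromosome 1 on the minus strand, and Fmo5 is alone on chromosome 3. Por, Cyp3a13, Cyp3a11 and Cyp3a25 lie on chromosome 5, Por on the plus strand and the 3 Cyp3a members on the minus strand. On chromosome 1 Fmo2 rose while Fmo1 and Fmo4 did not pass, and on chromosome 5 Cyp3a25 fell while its neighbour Cyp3a11 did not pass.

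Promoter sequences from RefSeq (GRCm38.p6) were found for 7 of the 8 members. The 250 bases before the start site are given for the members that were called and for Cyp3a11 and Por. Capitals mark the hexamers AGGTCA and AGTTCA, single binding elements of nuclear receptors such as PXR, CAR and RXR, and CAAAGTCCA, a motif preferred by HNF4A, on either strand. All are written 5′ to 3′ on the strand of the gene.
Cyp3a11, chr5:145879855-145880104, minus strand: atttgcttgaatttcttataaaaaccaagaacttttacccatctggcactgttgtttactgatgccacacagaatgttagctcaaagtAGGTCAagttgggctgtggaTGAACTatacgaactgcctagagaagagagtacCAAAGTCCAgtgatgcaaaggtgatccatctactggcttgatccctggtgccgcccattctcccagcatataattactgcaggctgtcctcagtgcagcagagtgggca
Cyp3a25, chr5:146009619-146009868, minus strand: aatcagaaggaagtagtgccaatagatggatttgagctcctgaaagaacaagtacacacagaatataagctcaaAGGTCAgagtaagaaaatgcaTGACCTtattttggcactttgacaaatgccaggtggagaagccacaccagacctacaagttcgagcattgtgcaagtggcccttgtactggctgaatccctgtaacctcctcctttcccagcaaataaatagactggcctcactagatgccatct
Fmo2, first start, chr1:162898759-162899008, minus strand: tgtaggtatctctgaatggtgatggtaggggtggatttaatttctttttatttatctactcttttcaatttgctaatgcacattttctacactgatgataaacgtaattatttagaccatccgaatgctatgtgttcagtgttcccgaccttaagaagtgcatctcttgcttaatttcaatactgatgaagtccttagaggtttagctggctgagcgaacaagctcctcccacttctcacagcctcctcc
Fmo2, second start, chr1:162898494-162898743, minus strand: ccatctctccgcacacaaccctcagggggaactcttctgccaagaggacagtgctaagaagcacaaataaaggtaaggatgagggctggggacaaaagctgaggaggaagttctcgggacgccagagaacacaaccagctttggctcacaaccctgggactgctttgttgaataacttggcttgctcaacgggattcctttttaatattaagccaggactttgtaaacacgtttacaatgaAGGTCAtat
Por, chr5:135688895-135689144, plus strand: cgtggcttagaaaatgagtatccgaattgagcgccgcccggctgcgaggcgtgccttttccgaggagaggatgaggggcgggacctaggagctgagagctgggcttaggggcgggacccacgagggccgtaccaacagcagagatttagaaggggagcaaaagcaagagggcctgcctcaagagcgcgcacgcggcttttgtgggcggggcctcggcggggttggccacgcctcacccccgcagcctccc

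These windows differed in what they held. The 250 bases before the Cyp3a11 start held AGGTCA at 162 bases, AGTTCA on the opposite strand at 142 bases and CAAAGTCCA at 109 bases from the start. Over all 32851 distinct windows of this length, searched on both strands, CAAAGTCCA was found in 126 (0.384%), AGGTCA in 14.0% and AGTTCA in 11.8%. The HNF4A motif was chosen with the Cyp3a11 window in view. It also occurred before Cyp3a16, Cyp3a41a and Cyp3a41b, at 95 to 99 bases, and in no other member.

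Cyp3a25 held AGGTCA at 176 bases and, on the opposite strand, at 155 bases, a pair that was also present before Cyp3a59 at 177 and 156 bases. The AGGTCA hexamer occurred before Fmo4 as well, and before the second of the 2 annotated Fmo2 starts at 9 bases. TTGCNNAA, a motif of C/EBP factors found in 9.56% of windows, occurred in Cyp3a25 and before both Fmo2 starts. Por held GGGCGG, the GC box found in 32.7% of windows, 4 times, and had 65.6% GC and 21 CpG, against 45.6% GC and 2 CpG for Cyp3a11. TGACNNNGC, the core of the antioxidant response element found in 10.2% of windows, occurred in none of the 7. These matches describe the letters of the windows only.

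**Figure D5:**
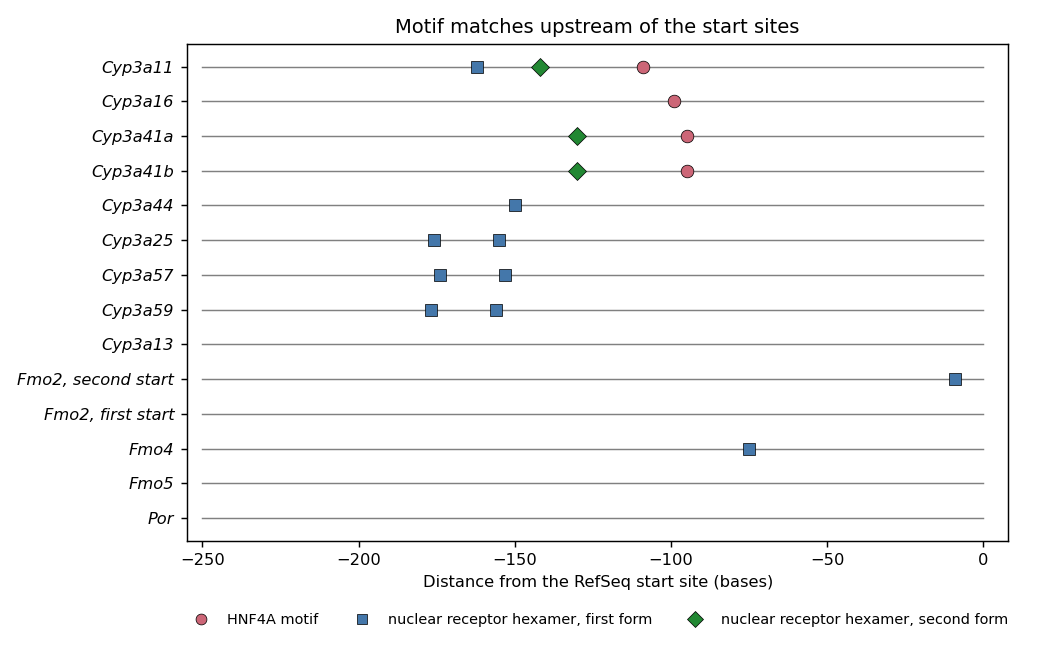
Positions of the HNF4A motif (circles) and of the hexamers AGGTCA (squares, first form) and AGTTCA (diamonds, second form) on either strand, as distance in bases from the RefSeq start site, for the members and the other Cyp3a genes. The HNF4A motif is present in Cyp3a11 and 3 other Cyp3a genes between 95 and 109 bases before the start, and paired squares occur in Cyp3a25, Cyp3a57 and Cyp3a59.

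For Cyp3a11, Fmo5 and Por, the genes whose pattern over the 6 livers was closest were found by the root mean square difference of log2 CPM after centring each gene. Closest to Cyp3a11 were Btg1 (0.0542), Clk1 (0.0634) and Gm52446 (0.0710). Closest to Fmo5 were Dctn6 (0.0300), Ldlrad4 (0.0505) and Taok2 (0.0512), and closest to Por were Pla1a (0.0681), Aifm2 (0.0696) and Serping1 (0.0713). None of these 9 is a member.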

How the data were processed

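Liver RNA was measured in 3 WT and 3 Hom mice by RNA-seq on the DNBSEQ platform. The authors deposited 1 table of 17975 genes with estimated counts, FPKM and TPM for each liver, without pooling the mice. The submitters' processing notes name HISAT2 2.0.4, Bowtie2 2.2.5, RSEM 1.2.12 and the genome build mm9. Annotation, strandedness and filters are not given in the sources used here. The deposited estimated (expected) counts, of which 65.9% were whole, were rounded to whole numbers and used for all tests. The deposited TPM values gave levels between genes, ratios and shares. The deposited FPKM values, divided into the counts, gave gene length for the length correction only. The mean columns were not used: their names were crossed, since the column named for each group equalled the mean of the other group for all 17975 genes (tolerance 0.01).

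Estimated counts were tested with edgeR 4.0.16 (R 4.3.3; glmQLFit and glmQLFTest, TMM factors, filterByExpr, group alone in the model) over the 13805 genes that passed the filter, with Benjamini-Hochberg adjustment over all of them and a threshold of 0.05. Exact two-sided permutation tests (SciPy 1.17.1, 20 regroupings) were used for single ratios and shares, and tables were handled in pandas 2.3.3 under Python 3.11.15. In counts simulated on these libraries, 200 genes were given a log2 change of 1, and 193 of them were tested among 13165 genes. Of these 193, 48.7% were recovered, and 0.0385% of the unchanged genes were called. In the data 41.7% of all genes tested were called. The rate of false calls with that many changed genes was not tested.

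The members and gene lists were chosen with earlier results of these data known. The genes named with values were the members, the other Cyp3a genes, a set of partners, receptors and heme enzymes chosen by role, and the gene of each list with the smallest adjusted p. Some further results are not reported here. Cyb5a over Por was added after its values were seen. Replicates were separate mice, and same-numbered mice did not deviate together (correlations -0.109, -0.056 and -0.049), so the numbers did not pair them. No 2 libraries of the same group agreed within sampling noise. Alternatives were DESeq2 1.42.0, other scalings, other filters, a length correction, a replicate block, a minimum log2 fold change of 1 and leaving out livers. Promoters were read from RefSeq tables (GRCm38.p6), and shared stretches of 50 bases and gene order from GENCODE M21 transcripts and annotation (GRCm38). Since the submitters' notes name another build, no coordinates are given apart from those of the RefSeq promoter windows.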

Additional observations from a re-analysis of the deposited data

How the results depend on the processing

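Fmo2 stayed higher and past the threshold under every alternative run, and leaving out 1 liver at a time gave 2.41 to 2.96. The same leave-out gave -0.45 to -0.13 for Cyp3a11, -0.059 to 0.41 for Cyp3a13, -0.72 to -0.47 for Cyp3a25, -0.025 to 0.16 for Fmo1, 0.45 to 0.94 for Fmo4, -0.11 to 0.087 for Fmo5, 0.17 to 0.51 for Por and -2.06 to -1.91 for Nek7. It gave -0.60 to 0.0047 for Cyp3a41b, -0.18 to 0.27 for Cyp3a59, -0.54 to 0.16 for Alas1 and -0.24 to 0.063 for Hmox1. Counts ranged from 1767 to 2750 genes lower and 1986 to 3057 higher, 0 to 1 members lower (0 without WT replicate 2, Hom replicate 2 or Hom replicate 3) and 1 to 2 higher (2 without WT replicate 1), 5 to 7 electron partners lower and 0 to 1 higher, 2 to 3 NADPH supply genes lower and 1 to 2 higher, 4 to 10 regulators lower and 0 to 1 higher, and 0 to 1 heme breakdown genes lower.

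Library size alone moved most values: 642 genes lower and 6574 higher, 0 members lower and 6 higher. Cyp3a11 changed sign to 0.18, Cyp3a25 lost its call at -0.14, and Cyp3a13 (0.65), Fmo1 (0.51), Fmo4 (1.07), Fmo5 (0.46) and Por (0.82) passed. Signs also turned for Cyp3a41b (0.23), Rxra (0.047), Alas1 (0.16), Hmox1 (0.31), Hmox2 (0.11) and Pgls (0.029). Lower and higher counts were 2 and 2 for electron partners, 2 and 1 for regulators, 1 and 1 for heme synthesis. It gave 3 sterol enzymes higher, 0 NADPH supply and 0 heme breakdown genes lower, and 4 phase I enzymes higher. A minimum log2 fold change of 1 left 575 genes lower and 1825 higher, 0 members lower, 1 electron partner, 2 regulators, 1 heme synthesis, 3 phase I and 0 heme breakdown genes lower, 0 sterol enzymes higher, and 0 NADPH supply genes lower and 0 higher. Upper-quartile factors gave 1 electron partner, 1 regulator and 2 phase I enzymes higher and 0 heme breakdown genes lower. A minimum of 10 counts in every liver gave 1 electron partner and 2 phase I enzymes higher and 0 heme breakdown genes lower. DESeq2 gave 2 heme breakdown genes lower and 2 phase I enzymes higher, and no filter gave 0 heme breakdown genes lower. The length correction gave Fmo5 -0.042, 1 electron partner higher and 0 heme breakdown genes lower. Estimated counts in place of TPM gave a Fmo2 share difference of 4.67 percentage points in place of 3.26. With replicates 2 and 3 of each group alone, an alternative chosen after seeing the data, 2 members were higher, Fmo4 at 1.09 and Fmo2, with 1 electron partner and 2 NADPH supply genes higher. The cause of these shifts was not tested.

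A replicate block in the model gave 2214 genes lower and 2383 higher; 1 member was lower (Cyp3a25, -0.57) and 1 higher (Fmo2, 2.71), and 2 sterol enzymes were higher. Rxra lost its call under the block (edgeR adjusted p = 0.0504). The numbers did not pair the mice. Of the other Cyp3a genes 4 were too scarce to test.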

Other observations

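Cyb5a, the cytochrome b5 that passes an electron to P450 enzymes beside Por, was compared with Por in the same liver after its values had been seen. It was 7.08, 8.20 and 9.03 times the Por TPM in the WT livers and 2.59, 3.64 and 4.41 times in the Hom livers. The highest Hom liver was below the lowest WT liver, and the log2 ratio differed by -1.22. Since the ratio was chosen for this separation, no test is given.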
